A study of Mus musculus with 4 samples.

Results

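Endogenous retroviruses are remnants of germline infections that now make up a large part of the mouse genome, and each consists of internal coding sequence between a pair of long terminal repeats (LTRs), which carry its promoter. Class II elements resemble betaretroviruses and include the intracisternal A particles (IAP), the ETn and MusD elements, relatives of mouse mammary tumour virus (MMTV) and other K-type families, and several of them still jump in mice. Class III elements are older and include MERVL, which is switched on in the early embryo from its MT2 LTR, and the MaLR elements (MT, ORR1), which lack most coding sequence and whose LTRs serve as promoters in oocytes. The means that keep endogenous retroviruses silent in the male germline differ between families. They include DNA methylation, histone methylation through TRIM28 and SETDB1, and piRNAs, short RNAs that guide PIWI proteins to matching transcripts.

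The features described are the repeats whose name carries the tag ERV2 or ERV3 in the deposited tables, chosen by name alone. There were 238 of them, 183 of class II and 55 of class III, among 498 repeats and 70584 features in all. The values come from small RNA sequencing of sperm from the cauda epididymis, where mature sperm are stored, of adult C57BL/6 mice. Extra-cross mice came from an additional cross to wild type and original-cross mice from the original cross, with 2 mice per group, 1 library per mouse and no treatment or other allele given in the labels. The series' title sets sperm that are prone to silencing at LoxP, the target of Cre recombinase, against sperm that are not, but no label states which of these a cross stands for. The data are 2 tables, 1 for each replicate number, each holding 1 library of each cross.

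Values are RPM, reads relative to a library total that the tables do not state. In the small RNA classes 1 read was worth 0.642 and 0.238 RPM in extra-cross replicates 1 and 2, and 1.58 and 0.561 RPM in original-cross replicates 1 and 2. A feature listed at 0 may still have stood for up to 3 reads, which is 1.93 and 0.713 RPM in the extra cross and 4.74 and 1.68 RPM in the original cross. Original-cross replicate 1 was thus the shallowest library. Reads with several matches appear as simple fractions, so the read numbers below are RPM divided by the value of 1 read, and no counting intervals can be given. The sperm transcripts Prm1, Prm2, Tnp1, Tnp2, Smcp, Odf1 and Akap4 were at or near 0, summing to 5.14 and 2.97 RPM in the extra cross and to 3.16 and 6.17 RPM in the original cross. The spermatogenic hairpins (4 of 4 listed) summed to 1813 and 1205 RPM in the extra cross and to 1923 and 749 RPM in the original cross. Most of this was mir-34c, at 1703 and 1132 RPM in the extra cross and at 1828 and 707 RPM in the original cross. The hairpin mir-34b had 108 and 70.4 RPM in the extra cross and 88.5 and 40.4 RPM in the original cross. Those of mir-449a and mir-449c were near 0, at no more than 4.74 RPM in any library.

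Several other readouts moved with the crosses. Hairpins of epididymal epithelium (5 of 5 listed) summed to 10408 and 5315 RPM in the extra cross and to 4394 and 2055 RPM in the original cross. Those of smooth muscle and stroma (6 of 6 listed) summed to 3382 and 5078 RPM in the extra cross and 8547 and 6264 RPM in the original cross. Blood hairpins (8 of 8 listed) followed the replicate number, at 11186 and 1136 RPM in the extra cross and at 6520 and 1229 RPM in the original cross. The piRNA loci summed to 4068 and 3684 RPM in the extra cross and to 16391 and 8826 RPM in the original cross. The part of these cells and of the piRNA loci in the values below was not tested, and in whole-sperm RNA fewer cells of a type and less RNA per cell cannot be told apart.

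Reads on class II and III elements were few and concentrated in a handful of features. All 238 together summed to 997 and 811 RPM in the extra cross and to 1149 and 769 RPM in the original cross, or 1553, 3411, 727 and 1370 reads in extra-cross replicates 1 and 2 and original-cross replicates 1 and 2. This was 12.9% and 14.8% of the reads on repeats in the extra cross, and 10.04% and 16.5% in the original cross. The mean over the 4 libraries was below 1 RPM for 171 features, at least 2 RPM for 45 and at least 10 RPM for 10. A value above 0 in all 4 libraries was found for 89 features and in a single library for 74, and 91 features appeared in only 1 of the tables. In 160 features no library reached 3 reads. Related consensus sequences share reads, and 81 features fell into 21 sets with the same 4 values within 0.001 RPM, so features are not independent counts. Of the names, 137 end in Mus, 63 in a wider group that includes mouse, such as Muridae or Rodentia, and 38 in another species, so that part of the reads matched a consensus built from another species. Lengths of the consensus sequences are not in the tables, so levels of different features are not compared per length, and a higher RPM may only reflect a longer element.

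A single K-type element, MMERVK9E_I_ERV2_Mus, drew most class II reads. This internal region of a betaretrovirus-like element had 597 and 423 RPM in the extra cross and 581 and 343 RPM in the original cross. It made up 69.3% and 62.2% of the class II sum in the extra cross, and 61.4% and 56.1% in the original cross. Its level followed the replicate number more than the cross, and the groups overlapped. The log2 fold change of the extra over the original cross was 0.17 ± 0.57 (SE, n = 2 each, limma adjusted p = 0.995), with 0.04 and 0.30 within the tables of replicates 1 and 2.

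In the values as deposited, the class II sum overlapped between the crosses, while the class III sum was lower in both extra-cross libraries. Class II features summed to 861 and 680 RPM in the extra cross and to 946 and 612 RPM in the original cross, with log2 ratios of -0.13 and 0.15 within the tables. Without MMERVK9E_I_ERV2_Mus, a setting chosen after seeing the data, they summed to 264 and 257 RPM in the extra cross and to 365 and 269 RPM in the original cross, with log2 ratios of -0.47 and -0.07. Class III features summed to 136 and 131 RPM in the extra cross and to 204 and 156 RPM in the original cross, with log2 ratios of -0.58 and -0.25, and their groups did not overlap. For comparison, class I elements summed to 401 and 309 RPM in the extra cross and to 655 and 261 RPM in the original cross, while LINE L1 repeats summed to 510 and 557 RPM in the extra cross and to 900 and 704 RPM in the original cross.

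**Figure D1:**
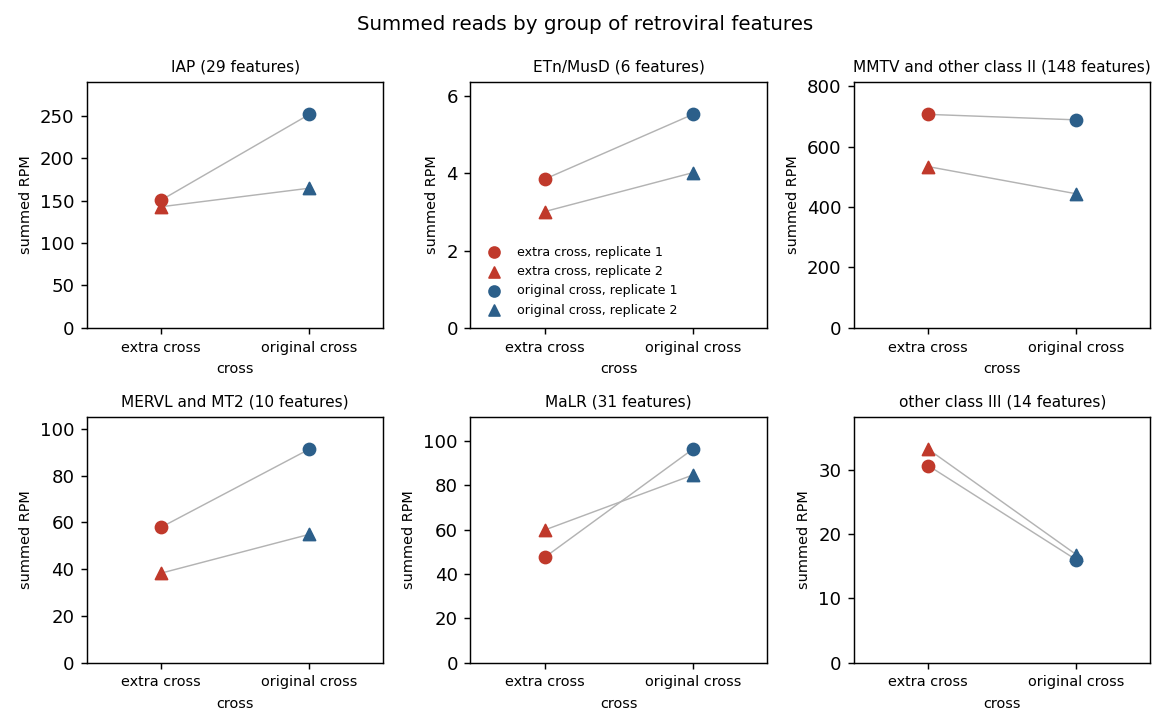
Summed RPM (y axis, from 0) of each group of features in the extra cross (left) and the original cross (right), with a point per library and a grey line joining the libraries of a table. IAP, ETn/MusD and MaLR sums are lower in both extra-cross libraries, the other class III sum is higher in both (30.7 and 33.2 against 16.0 and 16.8 RPM), and the remaining sums overlap between the crosses.

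The IAP elements, the most active mobile retroviruses of laboratory mice, were lower in the extra cross within each table, with log2 ratios of their sum of -0.74 and -0.21. The 29 IAP features summed to 150 and 143 RPM in the extra cross and to 251 and 165 RPM in the original cross. IAPEZI_ERV2_Mus, the internal region of the coding-competent IAP, had 52.0 and 47.5 RPM in the extra cross and 95.1 and 58.4 RPM in the original cross. The extra-cross libraries were close together and below both original-cross libraries, whose gap to each other was wider than that to the extra cross. IAPLTR1a_I_MM_ERV2_Mus had 52.1 and 54.8 RPM in the extra cross and 80.2 and 59.6 RPM in the original cross, again with no overlap. The log2 fold changes were -0.57 ± 0.46 and -0.37 ± 0.42 (SE, n = 2 each, limma adjusted p = 0.995 for both), and neither passed the test.

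Among the less abundant IAP features, the 4 named LTR that averaged 2 RPM or more were each lower in the extra cross within each table. That minimum is on the mean over all 4 libraries. IAPLTR1a_MM_ERV2_Mus, IAPLTR2_Mm_ERV2_Mus and IAPLTR2b_ERV2_Mus passed it only through the original cross. Their means were 1.41, 1.44 and 1.98 RPM in the extra cross and 4.81, 3.68 and 5.26 RPM in the original cross. IAPLTR1a_MM_ERV2_Mus had 1.02 and 1.80 RPM in the extra cross and 6.51 and 3.104 RPM in the original cross. IAPLTR1_Mm_LTR_ERV2_Mus, the LTR that belongs with IAPEZI, had 2.68 and 3.14 RPM in the extra cross and 5.19 and 6.75 RPM in the original cross. IAPLTR2_Mm_ERV2_Mus had 1.48 and 1.40 RPM in the extra cross and 5.06 and 2.30 RPM in the original cross. In these 3 the extra-cross libraries lay below both original-cross libraries. The share was 32.2% of all small RNA features over 2 RPM and 60.4% of the repeats other than class II and III. The fourth, IAPLTR2b_ERV2_Mus, overlapped, at 2.39 and 1.58 RPM in the extra cross and 8.22 and 2.30 RPM in the original cross. Its value in original-cross replicate 2 equals that of IAPLTR2_Mm_ERV2_Mus, so the LTR features are not independent counts. These values stand for few reads, such as 1.595 and 7.56 reads in the extra cross and 4.12 and 5.53 reads in the original cross for IAPLTR1a_MM_ERV2_Mus. The 16 IAP features named LTR summed to 12.01 and 10.7 RPM in the extra cross and to 31.3 and 16.7 RPM in the original cross, or 18.7 and 44.9 reads in the extra cross and 19.8 and 29.8 reads in the original cross. As a share of all IAP reads, which no scaling of the libraries can change, the LTR features took 7.98% and 7.48% in the extra cross and 12.4% and 10.2% in the original cross. The internal features IAPEY4_I_ERV2_Mus (6.74 and 10.1 RPM in the extra cross, 10.01 and 6.17 RPM in the original cross) and IAPA_MM_ERV2_Mus (7.06 and 4.20 against 9.48 and 6.55 RPM), whose name gives no part, overlapped between the crosses, although the second was lower within each table.

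**Figure D2:**
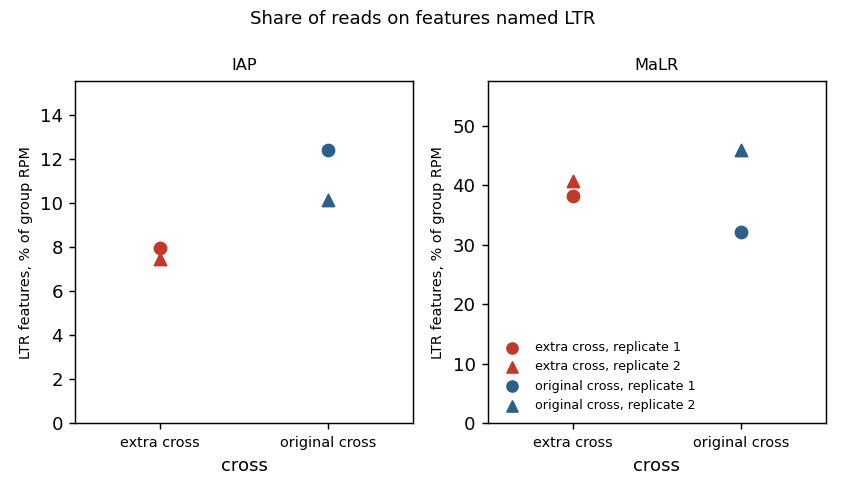
Share of the RPM of the IAP features (left) and of the MaLR features (right) that lies on features named LTR, in percent, with a point per library. The IAP share is lower in both extra-cross libraries (7.98% and 7.48%) than in both original-cross libraries (12.4% and 10.2%), while the MaLR shares of 38.2% and 40.8% in the extra cross lie between the 32.1% and 46.0% of the original cross. Features whose name states no part, 3 of IAP and 13 of MaLR, count only in the total. Some of those of MaLR are LTRs, so the MaLR panel is not the full LTR share.

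The ETn and MusD elements, which cause many insertional mutations in laboratory mice, were barely detected. Their 6 features summed to 3.85 and 3.01 RPM in the extra cross and to 5.53 and 4.02 RPM in the original cross, or 6.00 and 12.7 reads in the extra cross and 3.50 and 7.17 reads in the original cross. The most abundant, ETNERV_ERV2_Mus, had 1.605 and 0.476 RPM in the extra cross and 1.58 and 1.496 RPM in the original cross. ETnERV3_ERV2_Mus had 1.498 and 0.317 RPM in the extra cross and 0 and 1.12 RPM in the original cross, and RLTRETN_MM_ERV2_Mus had 0.321 and 0.951 RPM in the extra cross and 0.790 and 0.842 RPM in the original cross. ERVB7_3-LTR_MM_ERV2_Mus was seen in original-cross replicate 1 alone, at 3.16 RPM (2.00 reads), which was below the limit that a count of 0 allows there. The sum of the 6 was lower in both extra-cross libraries, with log2 ratios of -0.52 and -0.42 within the tables, but the ratio in replicate 1 was 0.04 when scaled to the repeat sum. It rests on few reads and was not tested, and no ETn or MusD feature averaged 2 RPM.

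Of the other class II elements with a mean of at least 2 RPM, 6 of 11 were higher in the extra cross within each table and 3 lower, where 18.1% of all small RNA features over that minimum were higher and 49.2% lower. Among the 6, ERVB5_3-I_RN_ERV2_Rattus and ERVB4_5-I_RN_ERV2_Rattus had equal values except in extra-cross replicate 2, so they are not independent. Both averaged 1.52 RPM in the original cross. They passed the minimum only through extra-cross replicate 2, at 5.53 and 5.05 RPM. MMTV-int_ERV2_Mus, the internal region of the endogenous mammary tumour virus, had 11.6 and 9.45 RPM in the extra cross and 3.95 and 6.17 RPM in the original cross. Both extra-cross libraries lay above both original-cross libraries, but the lowest value stands for 2.50 reads, and with a mean below 10 RPM the feature was not in the main test. MERVK26_ERV2_Muridae had 10.9 and 17.0 RPM in the extra cross and 5.53 and 11.2 RPM in the original cross, with overlap between the groups but a higher extra-cross value in each table (0.87 and 0.56 on the log2 scale). MMERVK10C_ERV2_Mus had 10.9 and 6.02 RPM in the extra cross and 10.3 and 5.61 RPM in the original cross, and followed the replicate number. RMER6-int_ERV2_Muridae went in opposite directions in the tables, at 19.9 and 11.7 RPM in the extra cross and 7.90 and 16.8 RPM in the original cross. The 148 features of MMTV and other class II elements summed to 707 and 534 RPM in the extra cross and to 689 and 444 RPM in the original cross.

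**Figure D3:**
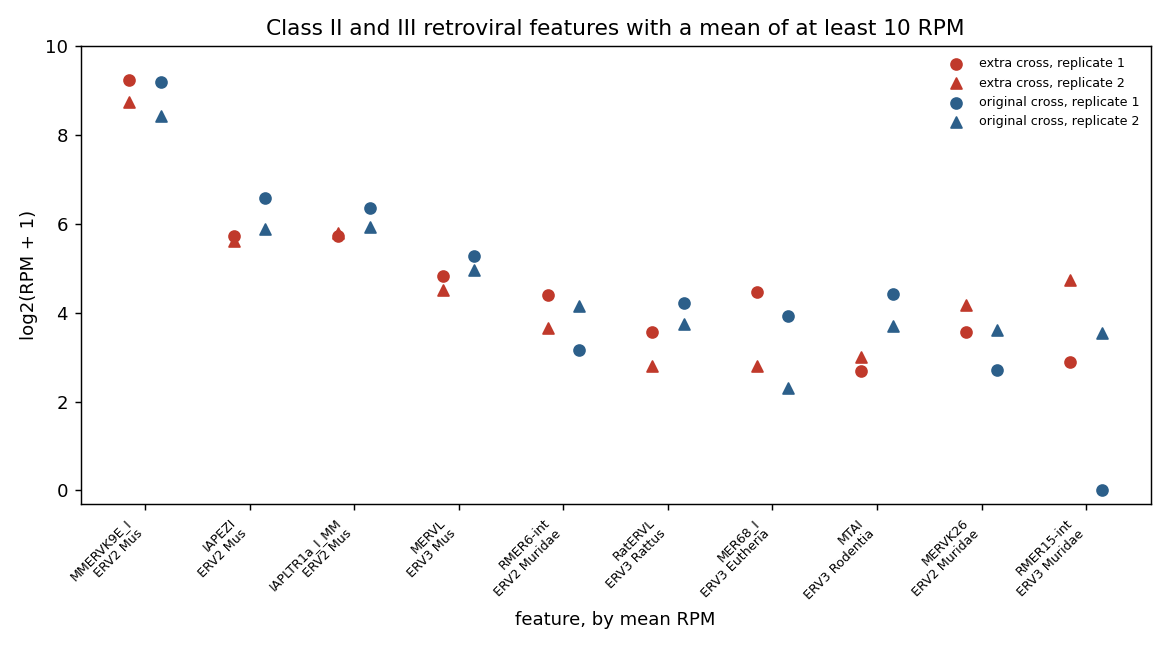
Level of each of the 10 most abundant features, as log2(RPM + 1), in the extra-cross libraries (left point pair of each feature) and the original-cross libraries (right point pair). MMERVK9E_I_ERV2_Mus stands above all others, IAPEZI_ERV2_Mus, IAPLTR1a_I_MM_ERV2_Mus, MERVL_ERV3_Mus, RatERVL_ERV3_Rattus and MTAI_ERV3_Rodentia are lower in both extra-cross libraries, and RMER15-int_ERV3_Muridae is at 0 in original-cross replicate 1.

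In class III, MERVL and the MaLR elements were lower in the extra cross within each table. MERVL_ERV3_Mus, the element of the early embryo, had 27.5 and 21.6 RPM in the extra cross and 37.4 and 30.01 RPM in the original cross. The groups did not overlap, and the log2 fold changes within the tables were alike at -0.43 and -0.46 (-0.44 ± 0.42 over both, SE, n = 2 each, limma adjusted p = 0.995). RatERVL_ERV3_Rattus, the consensus of its rat relative, had 10.8 and 5.92 RPM in the extra cross and 17.6 and 12.3 RPM in the original cross (-0.80 ± 0.53, adjusted p = 0.864). The older MERVL_2A_ERV3_Rodentia had 3.42 and 2.48 RPM in the extra cross and 6.58 and 2.90 RPM in the original cross. Of the MT2 LTRs, MT2B2_LTR_ERV3_Muridae had 2.72 and 1.82 RPM in the extra cross and 6.56 and 2.07 RPM in the original cross. MT2_Mm, the LTR that pairs with MERVL itself, was not among the features listed. The 10 MERVL and MT2 features summed to 57.9 and 38.3 RPM in the extra cross and to 91.4 and 54.9 RPM in the original cross, with log2 ratios of -0.66 and -0.52 within the tables.

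The MaLR elements had the lowest log2 ratio of the 6 groups over both tables (-0.76), though in replicate 2 that of MERVL and MT2 was slightly lower (-0.52 against -0.50). Their 31 features summed to 47.5 and 59.9 RPM in the extra cross and to 96.4 and 84.7 RPM in the original cross, with log2 ratios of -1.02 and -0.50 and no overlap. MTAI_ERV3_Rodentia, the internal region of the MTA type, had 5.46 and 7.01 RPM in the extra cross and 20.3 and 12.1 RPM in the original cross. It had the lowest p of the 10 tested features, with a log2 fold change of -1.21 ± 0.52 (SE, n = 2 each, unadjusted p = 0.0654, limma adjusted p = 0.417, and 0.278 to 0.999 over the alternatives without a replicate block). The MTA LTR differed less, with 4.57 and 10.9 RPM in the extra cross and 8.30 and 12.8 RPM in the original cross for MTA_Mm_LTR_ERV3_Mus, and 4.09 and 7.03 RPM in the extra cross against 5.14 and 7.23 RPM in the original cross for MTA_ERV3_Rodentia. ORR1A0_ERV3_Mus had 1.03 and 3.804 RPM in the extra cross and 5.06 and 6.74 RPM in the original cross, with no overlap. MTB_Mm_LTR_ERV3_Mus had 1.89 and 2.85 RPM in the extra cross and 6.32 and 4.66 RPM in the original cross, and its near copies MTB_Rn_LTR_ERV3_Rattus and MTB_ERV3_Rodentia were close to it. ORR1AI_ERV3_Rodentia was higher in original-cross replicate 1 than elsewhere, at 3.21 and 4.99 RPM in the extra cross and 11.6 and 3.93 RPM in the original cross.

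Outside these families, class III held a pair of internal regions that were higher in the extra cross within each table and that differed even more between the tables. RMER15-int_ERV3_Muridae had 6.42 and 25.8 RPM in the extra cross and 0 and 10.7 RPM in the original cross, so it was high in replicate 2. MER68_I_ERV3_Eutheria had 21.2 and 5.94 RPM in the extra cross and 14.2 and 3.93 RPM in the original cross, so it was high in replicate 1. Their log2 fold changes were 2.05 ± 1.35 and 0.52 ± 0.87 (SE, n = 2 each, limma adjusted p = 0.864 and 0.995). The first is not a ratio to a measured level in original-cross replicate 1, where 0 reads allow up to 4.74 RPM, and it was 0.27 without that library. RMER15_ERV3_Mus, named for the same element, had 1.28 and 0.713 RPM in the extra cross, which is 2.00 and 3.00 reads, and was listed at 0 in both original-cross libraries. RLTR19B_MM_ERV3_Mus had 0 and 0.317 RPM in the extra cross and 1.58 and 0 RPM in the original cross, at most 1.33 reads.

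In the 760 features of the small RNA classes that averaged 10 RPM or more, limma on log2(RPM + 1) called 0 at a Benjamini-Hochberg adjusted p of 0.05 (0% called), and 0 of the 10 retroviral features tested. At an unadjusted p under 0.05 there were 112 of the 760 (14.7%) and 0 of the 10. With the minimum lowered to 2 RPM, 0 of 1152 features and 0 of 45 retroviral features passed, and 182 of all (15.8%) and 1 of the 45, MTAI_ERV3_Rodentia, had an unadjusted p under 0.05. A comparison of 2 against 2 mice cannot give an exact permutation p below 0.333. The p-values measure the spread between these mice, which also carries the differences between the tables. By direction alone, 5 of the 10 were lower and 4 higher in each table, where 46.3% of the 760 were lower, 19.9% higher, and 81.5% and 1.85% of the other repeats. The same 5 lay below both original-cross libraries and 0 of the 10 above both, where the shares were 26.8% and 4.47% of the 760, and 66.7% and 1.85% of the other repeats.

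The direction of the 45 features that averaged 2 RPM or more was read against other repeats. This minimum is on the mean over all 4 libraries, so some features passed it only through the cross where they were higher. Of the 45, 27 had the lower value in the extra cross in each table and 9 the higher, where 49.2% of all small RNA features over that minimum were lower in both, 18.1% higher, and 78.3% and 6.6% of the other repeats. The extra-cross libraries lay below both original-cross libraries in 15 of the 45 (32.2% of all features, 60.4% of the other repeats) and above both in 2, MMTV-int_ERV2_Mus and IAP1-MM_I_ERV2_Mus (5.03% of all features, 2.83% of the other repeats). The median log2 fold change was -0.38 over the 45, with -0.55 and -0.17 in the tables, against -0.19 over all 1152 features, -0.47 over all 151 repeats and -0.54 over 45 LINE L1 features. Class II features had a median of -0.10 over 23, with 11 lower in both tables and 7 higher, and class III features had a median of -0.56 over 22, with 16 lower and 2 higher. The difference between the classes was not tested.

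By family, 8 of 12 IAP features over 2 RPM were lower in both tables and 1 higher, 6 of 8 MERVL and MT2 features were lower and 0 higher, 10 of 12 MaLR features were lower and 0 higher, and 3 of 11 MMTV and other class II features were lower and 6 higher. By the part of the element that the name states, 11 of 11 features named LTR were lower in both tables, with a median log2 fold change of -0.78. Of 20 features named as internal regions, 7 were lower and 7 higher, with a median of -0.10. Of 14 whose name states no part, 9 were lower and 2 higher, with a median of -0.41. Some of these, such as MTA_ERV3_Rodentia, are LTRs too, so the split is one of names. The share lower in both tables was 49.2% of all small RNA features over 2 RPM and 78.3% of the other repeats. The features named LTR over 2 RPM are 5 of class II and 6 of class III, several of them near copies that share reads. Of these, IAPLTR1a_MM_ERV2_Mus, IAPLTR2_Mm_ERV2_Mus and IAPLTR2b_ERV2_Mus passed the minimum only through the original cross, where they were high. This split by name was made with earlier results known. In 3 pairs of an internal region and its own LTR the LTR averaged 2 RPM or more, and these did not go one way. For IAPLTR1a_MM_ERV2_Mus the log2 fold change minus that of its internal region was -1.28 and -0.43 in the tables, for IAPLTR1_Mm_LTR_ERV2_Mus it was 0.11 and -0.61, and for MTA_Mm_LTR_ERV3_Mus it was 0.98 and 0.49. All features named LTR, 121 of them, summed to 52.5 and 61.2 RPM in the extra cross and to 106 and 87.6 RPM in the original cross.

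**Figure D4:**
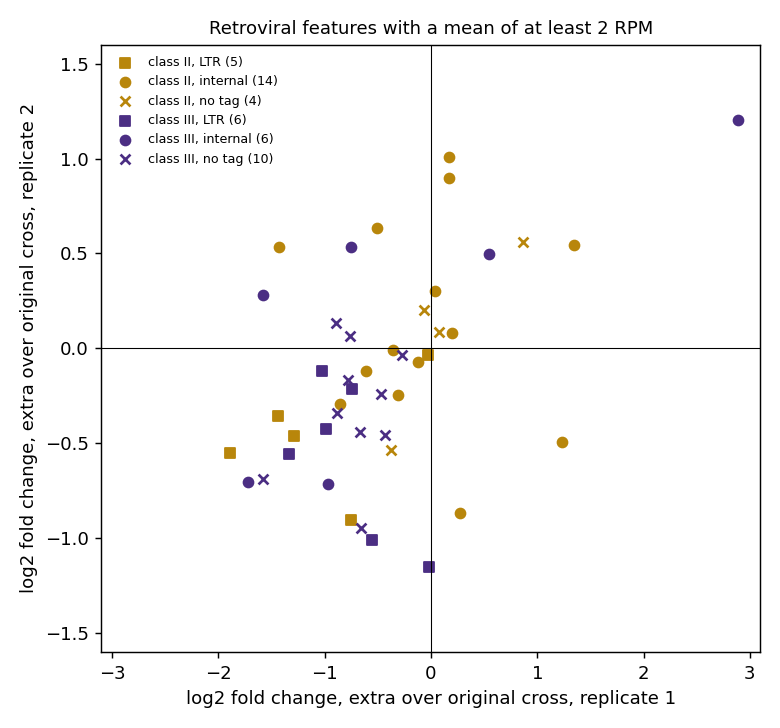
Log2 fold change of the extra over the original cross in the table of replicate 1 (x axis) against that of replicate 2 (y axis) for the 45 features that averaged 2 RPM or more, with colour for the class and symbol for the part named. All 11 features named LTR (squares) lie at or below 0 on both axes, and the internal regions (circles) lie in all quadrants. Of the 14 features whose name states no part (crosses), 9 lie below 0 on both axes.

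Whether a family was higher or lower depended in part on the scaling of the libraries. Median-ratio factors moved the log2 fold change of a feature by a median of 0.32, scaling to the sum of the small RNA classes moved it by a median of -0.13, and scaling to the repeat sum moved that of a repeat by a median of 0.16. The MaLR sum stayed lower in the extra cross in both tables under all 3, with log2 ratios of -0.44, -0.90 and -0.60 in that order, and so did the MERVL and MT2 sum, with -0.27, -0.72 and -0.42. The IAP sum was lower under all 3 (-0.15, -0.61 and -0.31), but under median-ratio factors the tables differed in sign (-0.37 and 0.07). The same held for the sum of all class III features (-0.09, -0.55 and -0.25), with -0.21 and 0.02 in the tables under median-ratio factors. The other class III sum stayed higher in both tables (1.28, 0.83 and 1.13). The sum of MMTV and other class II was higher over both tables (0.47, 0.02 and 0.32), but was lower in replicate 1 when scaled to the sum of the classes (-0.23). Of the 11 features of that group over 2 RPM, 9, 4 and 6 were higher in both tables under the 3 scalings and 0, 3 and 0 lower. Of the 11 LTR features, 7 were lower in both tables under median-ratio factors and 1 higher, 11 lower under the sum of the classes and 9 under the repeat sum. The shares of all small RNA features by direction were computed for the values as deposited only. The counts under the 3 scalings therefore have no background to be read against.

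**Figure D5:**
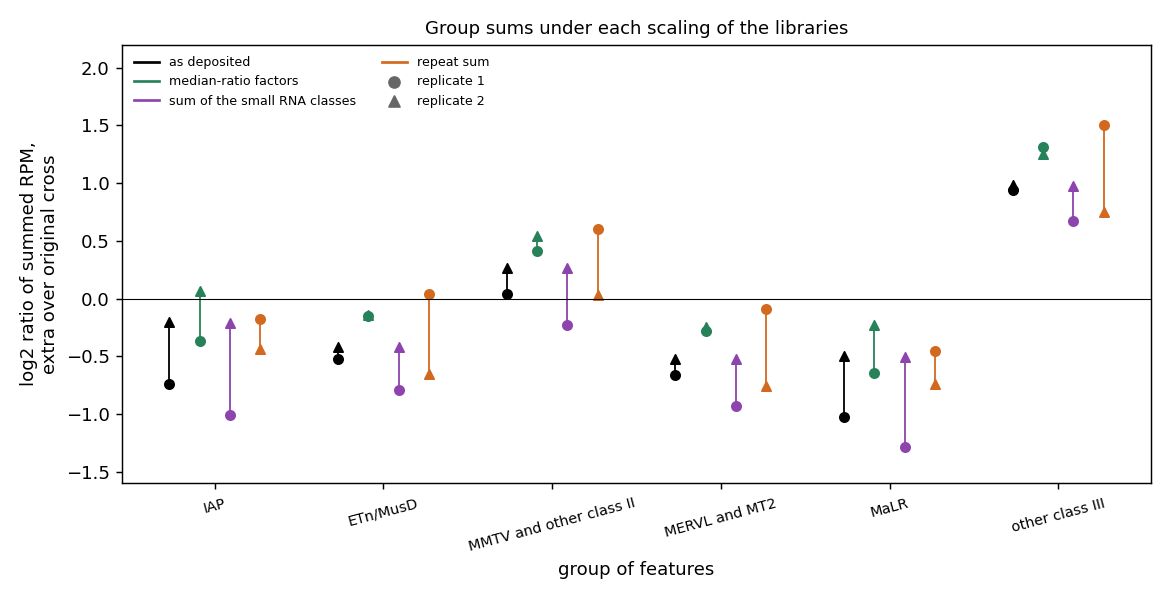
Log2 ratio of summed RPM, extra over original cross (y axis), for the 6 groups of features under the values as deposited and 3 scalings of the libraries (colours), with the table of replicate 1 as a circle and that of replicate 2 as a triangle. MaLR and MERVL with MT2 lie below 0 and other class III above 0 under every scaling shown, while IAP, ETn/MusD and the MMTV group have a point on each side under at least 1 of them.

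Transcripts of the genes that silence these elements were too sparse to compare. Of 43 such genes 32 had a listed RefSeq transcript, and the highest mean, for the histone methyltransferase gene Ehmt2, was 4.72 RPM, so none reached the minimum of 10 RPM. Ehmt2 had 7.70 and 2.85 RPM in the extra cross and 1.58 and 6.73 RPM in the original cross. Trim28, which recruits silencing complexes to retroviral sequence, had 6.42 and 3.57 RPM in the extra cross and 4.74 and 3.37 RPM in the original cross. Setdb1, which methylates histone H3 there, had 2.31 and 2.62 RPM in the extra cross and 1.58 and 7.01 RPM in the original cross, and the restriction factor Samhd1 had 1.71 and 2.77 RPM in the extra cross and 5.27 and 3.74 RPM in the original cross. With a minimum of 2 RPM, 8 genes of the list were among 3869 tested, and limma called 0 of both (0%), with 0 of the 8 and 480 of the 3869 (12.4%) at an unadjusted p under 0.05. Among the PIWI genes, Piwil2 had a mean of 0.503 RPM and Piwil4 of 0.0198 RPM.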

How the data were processed

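Small RNA libraries (Illumina TruSeq small RNA kit after gel size selection, per the labels' protocols) of 4 mice shared a sequencing lane. Bowtie 1.1.2, CASAVA 1.8.2 and build mm10 are listed in the submitters' processing notes, without their role. For trimming, annotation and reads with several matches, the method is not given in the sources used here. Per the file headers, the authors deposited RPM, with no total stated. Features listed in 1 table were given 0 in the other. The commonest miRNA value of each library was taken as 1 read, so the scales rest on 1557766, 4205692, 632859 and 1782506 reads in extra-cross replicates 1 and 2 and original-cross replicates 1 and 2. Whole reads (within 0.02) made up 28.6% to 36.3% of the values that came to at most 20 reads, and no count model was run for that reason.

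The test was limma 3.58.1 (R 4.3.3) on log2(RPM + 1), cross type only, with a variance trend, over the tRNA, miRNA, piRNA, rRNA and repeat features that averaged 10 RPM or more. Fold changes on this scale understate those of low features. RefSeq transcripts (55925 of 68434, 81.7%, matched to 16785 genes through the RefSeq table of GRCm38.p6) were fitted apart, with original-cross replicate 1 multiplied by 26.2, the ratio of its 1-read values. The fit was tested on simulated data. Other software was matplotlib 3.10.9, numpy 2.4.6, pandas 2.3.3 and Python 3.11.15. Alternatives were other pseudocounts, minimums and scalings, a replicate block, no variance trend and each library left out.

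Named features were all those at 10 RPM or more on average, up to 4 of the most abundant per family, the 3 largest in each direction among those over 2 RPM that moved alike in both tables, and pairs of internal region and LTR, with up to 4 of the most abundant silencing genes. Piwil2 and Piwil4, MTB_Mm_LTR_ERV3_Mus and its near copies, IAPLTR2_Mm_ERV2_Mus, IAPLTR2b_ERV2_Mus and IAP1-MM_I_ERV2_Mus were named after their values were seen. The same holds for ERVB5_3-I_RN_ERV2_Rattus and ERVB4_5-I_RN_ERV2_Rattus. Features and lists were chosen with earlier results of these data known. The part of an element was taken from the name. Sequences are not shown, since no consensus was at hand.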

Additional observations from a re-analysis of the deposited data

How the results depend on the processing

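No feature passed under any setting except the replicate block, where limma called 171 of 760 features (22.5%) and 2 retroviral features, MTAI_ERV3_Rodentia (adjusted p = 0.0146) and RMER15-int_ERV3_Muridae (adjusted p = 1.5e-05). The call of RMER15-int_ERV3_Muridae rests on a value of 0 in original-cross replicate 1. Its log2 fold changes in the tables were 2.89 and 1.20, and its SE was 0.42 with the block and 1.35 without. The labels do not say that the replicate numbers mark pairs, although deviations from the group means of same-numbered libraries correlated at 0.87 across features. The median over the 5 tested class II features was 0.17, and it was -0.10 with a minimum of 2 RPM, 0.022 with no minimum, 0.49 under median-ratio factors, 0.034 scaled to the sum of the small RNA classes and 0.34 scaled to the repeat sum, and ran from -0.21 to 0.42 with 1 library left out. The median over the 5 tested class III features was -0.44, and it was -0.39 with a pseudocount of 5, -0.56 with a minimum of 2 RPM, -0.22 with no minimum, -0.13 under median-ratio factors, -0.57 and -0.29 under the other scalings, and ran from -0.61 to -0.28 with 1 library left out. The log2 ratio of the class II sum was 0.0076, and 0.33 under median-ratio factors, -0.27 without MMERVK9E_I_ERV2_Mus and from -0.31 to 0.32 with 1 library left out. That of the class III sum was -0.42, and -0.094 under median-ratio factors (-0.21 and 0.02 in the tables of replicates 1 and 2). With 1 library left out, the signs turned among the 10 tested features for MMERVK9E_I_ERV2_Mus (-0.21 to 0.55), RMER6-int_ERV2_Muridae (-0.13 to 0.87) and MER68_I_ERV3_Eutheria (-0.32 to 1.36). Several named features below 10 RPM turned too. These included MTA_Mm_LTR_ERV3_Mus (-1.03 to 0.07), MT2B2_LTR_ERV3_Muridae (-1.22 to 0.08), MERVL_2A_ERV3_Rodentia (-0.95 to 0.009) and ORR1AI_ERV3_Rodentia (-1.33 to 0.03). MTA_ERV3_Rodentia (-0.48 to 0.18), MMERVK10C_ERV2_Mus (-0.30 to 0.47) and IAPEY4_I_ERV2_Mus (-0.25 to 0.37) did so as well. A lone library was then assumed to vary like the others. The cause of these shifts was not tested. The silencing genes gave values only with a minimum of 2 RPM and with none, and no more were called. Depth limits all features below 10 RPM, above all in original-cross replicate 1.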

Other observations

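Retroviruses start reverse transcription from a host tRNA, for which the IAP elements use tRNA-Phe, ETn, MusD and MMTV use tRNA-Lys, and MERVL uses tRNA-Leu. The 35 tRNA-Lys genes summed to 27741 and 32420 RPM in the extra cross and 27624 and 34095 RPM in the original cross. The 30 tRNA-Leu genes summed to 12487 and 9836 RPM in the extra cross and to 12597 and 10181 RPM in the original cross. The 7 tRNA-Phe genes summed to 30.1 and 1042 RPM in the extra cross and to 34.8 and 583 RPM in the original cross, so that they differed between the tables far more than between the crosses.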
